A study of Mus musculus with 9 samples.

Results

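The CD8 co-receptor and the signalling chains of the T cell receptor (TCR) were followed through 10 genes in splenic CD8+ T cells that had received 1 of 2 growth-promoting cytokines, interleukin-15 (IL-15) or interleukin-2 (IL-2). The genes were chosen by name, with earlier results of these data known: Cd8a, Cd8b1, Cd3d, Cd3e, Cd3g, Cd247, Lck, Zap70, Lat and Cd5. They are 10 of the 20418 gene symbols in the deposited tables, where they have 17 transcript rows, and for each symbol the transcript with the highest mean read count was taken. All 10 passed the filter on low counts, and none shared its counts with another symbol.

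A CD8+ T cell reads peptides held by MHC class I through the TCR, whose antigen-binding chains have no signalling tails of their own. The CD3 chains and the zeta chain carry the tyrosine motifs that the kinase Lck phosphorylates, and the CD8 alpha and beta chains bind MHC class I and bring Lck to the receptor. Zap70 docks on the phosphorylated motifs and phosphorylates the adaptor Lat, while CD5 is a surface glycoprotein known for damping TCR signals in T cells.

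Female C57BL/6 mice aged 6 weeks gave the spleen cells. The labels name no genetic change, no cell sorting and no stimulus of the TCR. Either cytokine was applied at a low dose (1 nM) or a high one (500 nM), and RNA was taken after 4 h or 24 h. Untreated cells, whose label gives no culture time, made the remaining group. Each of the 9 libraries was made from RNA of 3 identically treated samples pooled, so that each condition had 1 library. Depth, with 1 transcript taken per gene, was lowest in the library of 4 h with 1 nM IL-15, at 27158143 reads, and highest in that of 24 h with 1 nM IL-2, at 48799961 reads. The tests take their error from the factorial layout, so a p-value reflects no more than how these libraries vary, which may be technical. Levels of a gene across libraries are given in CPM, counts scaled to library size with the trimmed mean of M values, and levels between genes in RPKM, the deposited counts scaled to library size and transcript length. Fold changes are in log2 with their standard errors (SE), and a change was called at an adjusted p below 0.05 (edgeR's quasi-likelihood test, Benjamini-Hochberg over all 13479 genes tested). Exact intervals on these counts would cover counting error only. In a bulk library, fewer cells of a type and less RNA per cell cannot be told apart.

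The 250 bases before the annotated start of 6 of the genes are printed here: those of the CD3 and zeta chains, whose transcripts were lower together at 500 nM for 24 h, that of Cd8a, which was higher, and that of Cd5, whose level varied most. They come from RefSeq on GRCm38.p6, which is not the mm8 build of the counts, and 9 of the 10 genes had an entry. Capitals mark TTCNNNGAA, a STAT-type motif, and AGGAAG, an ETS-type motif, on either strand. In Cd3d the matches overlap in 1 run of capitals. The windows lie at chr9:44981536-44981785 (plus strand) for Cd3d, chr9:44980432-44980681 (minus) for Cd3g, chr9:45009612-45009861 (minus) for Cd3e, chr1:165788431-165788680 (plus) for Cd247, chr6:71373177-71373426 (plus) for Cd8a and chr19:10738975-10739224 (minus) for Cd5.
Cd3d: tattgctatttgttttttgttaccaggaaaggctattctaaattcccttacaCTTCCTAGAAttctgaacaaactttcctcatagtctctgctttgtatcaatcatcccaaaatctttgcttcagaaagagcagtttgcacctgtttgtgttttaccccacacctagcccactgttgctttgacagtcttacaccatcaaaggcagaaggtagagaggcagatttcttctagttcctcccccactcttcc
Cd3g: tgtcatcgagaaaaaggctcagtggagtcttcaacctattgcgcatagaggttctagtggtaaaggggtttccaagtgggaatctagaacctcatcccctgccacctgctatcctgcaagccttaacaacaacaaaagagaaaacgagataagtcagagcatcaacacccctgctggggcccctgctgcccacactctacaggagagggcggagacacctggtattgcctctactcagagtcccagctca
Cd3e: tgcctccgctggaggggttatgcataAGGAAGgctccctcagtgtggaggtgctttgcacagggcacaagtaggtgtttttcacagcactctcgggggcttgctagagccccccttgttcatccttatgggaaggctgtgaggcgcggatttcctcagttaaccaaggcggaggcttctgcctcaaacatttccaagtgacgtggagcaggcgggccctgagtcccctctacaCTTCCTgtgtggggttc
Cd247: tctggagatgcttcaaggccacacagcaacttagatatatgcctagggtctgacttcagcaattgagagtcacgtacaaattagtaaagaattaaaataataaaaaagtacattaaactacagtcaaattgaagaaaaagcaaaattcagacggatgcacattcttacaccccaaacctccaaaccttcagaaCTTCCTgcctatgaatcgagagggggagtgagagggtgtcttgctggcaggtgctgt
Cd8a: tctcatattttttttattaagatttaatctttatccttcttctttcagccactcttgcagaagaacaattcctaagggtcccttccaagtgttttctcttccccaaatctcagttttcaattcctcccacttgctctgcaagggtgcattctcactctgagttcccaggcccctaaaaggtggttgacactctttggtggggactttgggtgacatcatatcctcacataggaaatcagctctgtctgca
Cd5: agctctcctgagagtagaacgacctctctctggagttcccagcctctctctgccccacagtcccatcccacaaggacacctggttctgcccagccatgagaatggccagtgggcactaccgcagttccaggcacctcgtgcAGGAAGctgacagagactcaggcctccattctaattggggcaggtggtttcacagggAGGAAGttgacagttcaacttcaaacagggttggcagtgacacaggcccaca

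The start sites of Cd3d and Cd3g lie 1355 bp apart on opposite strands. At least 1 window of 7 of the 9 genes held AGGAAG, against 29.5% of 32851 promoter windows of the same length. The STAT-type motif was found in 1 of the 9 genes (Cd3d), against 7.02% of all windows. TGTGGT, a RUNX-type motif, was in 2 of the 9 (Lck and Zap70), against 14.0%, and the E-box CAGNTG in 7 of the 9, against 44.8%. Zap70 and Lck have several windows each and so more chances to hold a motif. A match describes letters in the window and is not a measured binding site.

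Per length of transcript, Cd8b1 was the most abundant of the 10, with a mean of 653 RPKM over the 9 libraries, and Cd5 the least, with 26.1 RPKM. Lat followed Cd8b1 with 445 RPKM, and their ranges overlapped (173 to 698 RPKM for Lat and 472 to 977 RPKM for Cd8b1). Cd247 (239), Lck (227) and Cd3g (211 RPKM) came next, and their ranges over the libraries overlapped: 166 to 312, 148 to 285 and 115 to 315 RPKM. Below them lay Cd8a with 157 RPKM, Zap70 with 130.2, Cd3d with 95.3 and Cd3e with 28.2 RPKM. Ranges of the lower neighbours also overlapped, with 88.3 to 225 RPKM for Cd8a, 98.1 to 205 for Zap70 and 51.5 to 156 for Cd3d, and with 21.4 to 44.1 for Cd3e and 4.75 to 46.4 RPKM for Cd5. Cd3d and Cd3e were the only neighbours in this order whose ranges did not overlap. The other 4 transcript rows of Cd247 each held between 10.8% and 13.9% of the count of the transcript taken.

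Cd4 had 0.227 to 5.62 CPM, against 393 to 985 CPM for Cd8a. Foxp3, a marker of regulatory T cells, lay above Cd4 in every library, with 15.3 to 29.7 CPM. In the same list, Zbtb7b had 4.07 to 14.4, Ctla4 1.75 to 16.1, Ikzf2 1.51 to 6.76 and Cd40lg 0.108 to 1.46 CPM. Markers of other spleen cells were present in every library: those of B cells summed to 257 to 843 CPM, those of myeloid cells to 410.1 to 2097 CPM and those of dendritic cells to 17.6 to 123 CPM. Some genes of these lists lay near 0: Pax5 reached 0.323 CPM at most, Itgam 1.03 and Clec9a 1.58 CPM. The list for NK cells summed to 15.6 to 186 CPM, carried by Tyrobp (94.7 CPM untreated) and Fcer1g (88.4 CPM untreated), which myeloid cells also express. Its other genes were near 0: Itga2 was at 0 in all libraries, Ncr1, Klra8 and Klra4 were below 1 CPM, and Klrb1c reached 3.19 CPM at most. Markers of CD4+ and regulatory T cells summed to 28.1 to 59.8 CPM and those of erythroid cells to 5.73 to 110.3 CPM. In the erythroid list, Hbb-b1 and Hbb-b2 had identical values in every library (53.5 CPM each untreated). The same reads may thus be counted under both symbols in that sum. The 10 genes of the receptor complex together had 4087 to 6855 CPM.

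**Figure D1:**
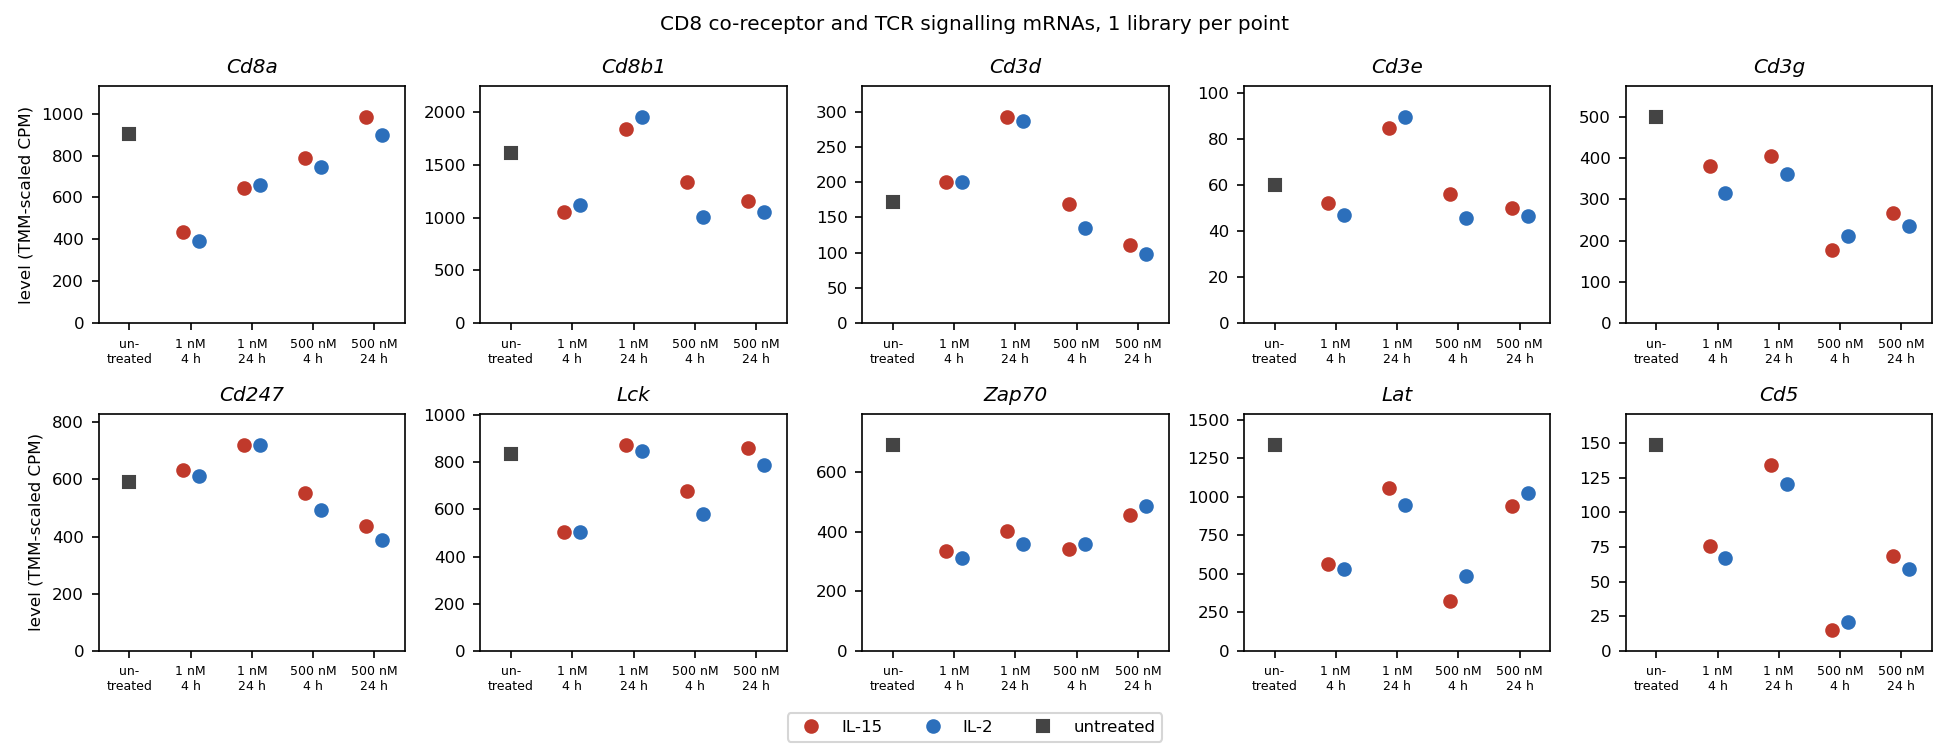
Level of each of the 10 genes in each of the 9 libraries, in CPM scaled by the trimmed mean of M values, on an axis that starts at 0, with 1 point per library. Cd8a was at its highest with IL-15 at 500 nM for 24 h, Cd8b1 and Cd3d with 1 nM for 24 h, and Cd5 at its lowest with 500 nM for 4 h.

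Cd8a was higher at 500 nM than at 1 nM, while the CD3 chain genes Cd3d and Cd3g and the damping co-receptor Cd5 were lower. These 4 of the 10 changed with dose across both times and cytokines. Of all genes tested, 16.1% changed, 7.63% higher and 8.47% lower. At 4 h, 3 of the 10 changed (Cd8a higher, Cd3g and Cd5 lower), against 10.1% of all genes, 5.42% higher and 4.63% lower. At 24 h, 7 of the 10 changed, against 31.2% of all genes, 15.6% in each direction: Cd8a was higher, and Cd8b1, Cd3d, Cd3e, Cd3g, Cd247 and Cd5 were lower. The kinases Lck and Zap70 and the adaptor Lat passed the test for dose at neither time.

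The count at 24 h rests on few libraries. It was 1 without the IL-2 library at 500 nM, 2 without the IL-15 library at 500 nM and 4 without the IL-2 library at 1 nM. Without the IL-15 library at 1 nM it was 5. The count over both times was 1 without IL-15 at 500 nM for 24 h. It was 2 without IL-2 at 500 nM for 24 h, without IL-15 at 1 nM for 24 h or without IL-2 at 1 nM for 4 h. With the libraries scaled to 10 T lineage genes outside the complex, 2 of the 10 passed at 24 h (Cd8a and Cd3d), and the split of all calls was 2882 higher and 1150 lower in place of 2103 and 2104. That scaling moved the median of all genes by 0.27 in log2, and 3 of its 10 genes were themselves called at 24 h.

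Markers of other cells moved with dose. At 24 h, B cell markers summed to 257 and 309.6 CPM at 500 nM, against 833 and 843 CPM at 1 nM. Myeloid markers summed to 410.1 and 438 CPM at 500 nM, against 1584 and 1613 CPM at 1 nM. At 4 h, B cell markers summed to 414 and 446 CPM at 500 nM, against 596 and 621 CPM at 1 nM, and myeloid markers to 1180.1 and 1315 CPM at 500 nM, against 856 and 962 CPM at 1 nM. Most of that myeloid sum at 4 h was Ctss, with 995 and 1178 CPM at 500 nM, against 587 and 706 CPM at 1 nM. Of 12 myeloid markers, 1 was called higher and 2 lower at 500 nM for 4 h, with a median change of -0.74. At 24 h, 10 of 12 markers for B cells and 11 of 12 for myeloid cells were called lower at 500 nM. Their part in the changes of the receptor genes was not tested.

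**Figure D2:**
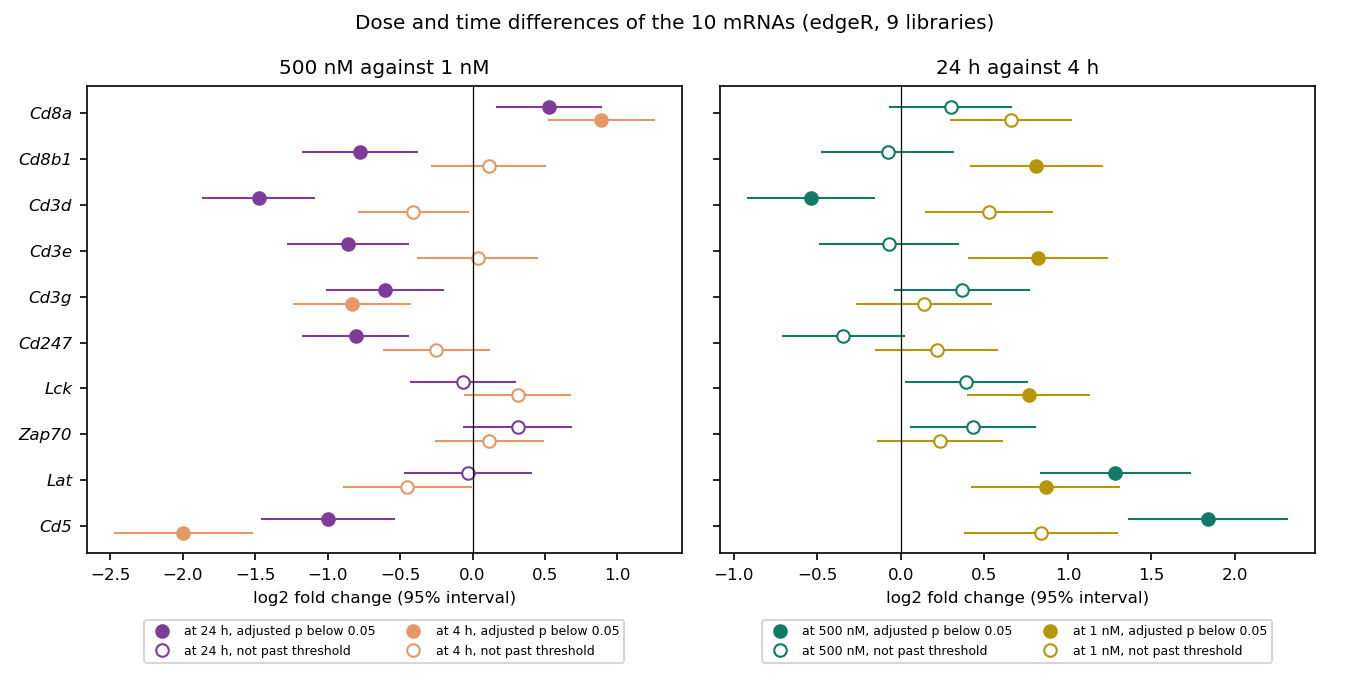
Log2 fold change with its 95% interval for each of the 10 genes, for 500 nM against 1 nM at 24 h and at 4 h (left) and for 24 h against 4 h at 500 nM and at 1 nM (right), with filled points for changes past an adjusted p of 0.05. For dose, Cd8a lies above 0 at both times and Cd5 below 0 at both, while Cd3d lies at -1.48 at 24 h and -0.41 at 4 h.

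The 2 CD8 chains moved in opposite directions with dose at 24 h. Cd8a encodes the alpha chain, which also forms homodimers, and Cd8b1 the beta chain, which needs alpha to reach the surface. Cd8a had 786 (IL-15) and 744 CPM (IL-2) at 500 nM for 4 h and 985 and 897 CPM at 500 nM for 24 h. At 1 nM it had 434 (IL-15) and 393 CPM (IL-2) at 4 h and 644 and 661 CPM at 24 h. All 4 libraries at 500 nM lay above all 4 at 1 nM. The log2 fold change was 0.71 ± 0.15 (SE, adjusted p = 0.017, edgeR) over both times, 0.89 ± 0.17 (adjusted p = 0.0050) at 4 h and 0.53 ± 0.17 (adjusted p = 0.032) at 24 h. The call over both times was lost without IL-2 at 1 nM for 4 h or without IL-15 at 500 nM for 24 h, with adjusted p up to 0.059. The call at 24 h was lost without any one of the 4 libraries at 24 h, with values of 0.47 to 0.60.

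Cd8b1 had 1342 (IL-15) and 1011 CPM (IL-2) at 500 nM for 4 h and 1161 and 1058 CPM at 500 nM for 24 h. At 1 nM it had 1050.4 and 1117 CPM at 4 h and 1840.0 and 1957 CPM at 24 h, again IL-15 before IL-2. The libraries at 1 nM for 24 h stood above all others, and the groups of dose overlapped at 4 h. At 24 h the fold change of 500 nM over 1 nM was -0.78 ± 0.18 (adjusted p = 0.0065, edgeR), and at 4 h it was 0.11 ± 0.18 (adjusted p = 0.79). The difference between these, tested as the interaction of dose and time, was -0.89 ± 0.26 (adjusted p = 0.052). The call at 24 h was lost without either 500 nM library at 24 h or without IL-2 at 1 nM for 24 h, and with scaling to T lineage genes (-0.45, adjusted p = 0.23).

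The ratio of Cd8a to Cd8b1 in RPKM put both chains in 1 value that does not depend on the scaling of libraries. It was 0.265 (IL-15) and 0.333 (IL-2) at 500 nM for 4 h, and 0.384 and 0.383 at 500 nM for 24 h. At 1 nM it was 0.187 and 0.159 at 4 h, and 0.158 and 0.153 at 24 h. The untreated library had 0.253, below all libraries at 500 nM and above all at 1 nM. The mean was 0.341 ± 0.0561 at 500 nM and 0.164 ± 0.0154 at 1 nM (SD, n = 4 each), a 2.06-fold difference between the means of the log2 ratios with p = 0.0286 in a two-sided exact permutation test. That is the smallest p that 4 against 4 can give, and it was 0.0571 after adjustment over the 2 ratio tests. The 4 libraries of a dose span both times and both cytokines, and the test did not pair them. The difference was 1.72-fold at 4 h and 2.47-fold at 24 h. Between 24 h and 4 h the ratio differed 1.08-fold (p = 0.829, exact permutation test).

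**Figure D3:**
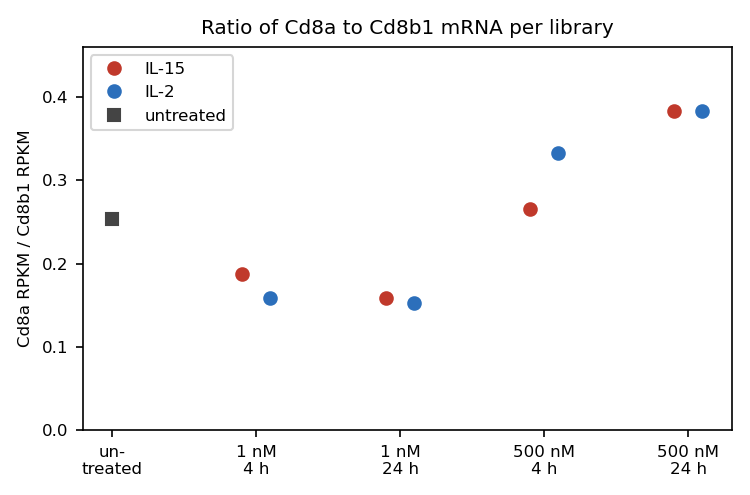
Ratio of Cd8a to Cd8b1 in RPKM for each library. The libraries at 500 nM lie between 0.265 and 0.384, above the untreated library at 0.253 and above those at 1 nM, which lie between 0.153 and 0.187.

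The CD3 chains and the zeta chain were all lower at 500 nM for 24 h. Cd3d, Cd3e and Cd3g encode the delta, epsilon and gamma chains, which pair as epsilon with delta and epsilon with gamma, and Cd247 encodes the zeta chain. Cd3d had 111 (IL-15) and 97.6 CPM (IL-2) at 500 nM for 24 h, against 293 and 287 CPM at 1 nM for 24 h. At 4 h it had 169 and 135 CPM at 500 nM, against 201 and 201 CPM at 1 nM. The groups of dose did not overlap at either time. The fold change was -1.48 ± 0.18 (adjusted p = 0.00011, edgeR) at 24 h and -0.41 ± 0.18 (adjusted p = 0.19) at 4 h. The difference between the times was itself past the threshold, at -1.07 ± 0.25 (adjusted p = 0.023, edgeR), and Cd3d was the 1 gene of the 10 for which it was. Among all genes tested, 8.81% passed that test, 4.06% with a positive and 4.76% with a negative value. The call of the interaction was lost without IL-2 at 1 nM for 24 h, IL-15 at 1 nM for 4 h, IL-15 at 500 nM for 4 h, or either library at 500 nM for 24 h, while the value stayed between -1.19 and -0.94. Over both times the fold change was -0.94 ± 0.23 (adjusted p = 0.027), and without both libraries at 1 nM for 24 h it was -0.39 (adjusted p = 0.21). That call was also lost without IL-2 at 1 nM for 4 h or without any one of the 4 libraries at 24 h, whereas the call at 24 h held without each library in turn.

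Cd247 followed the same order. It had 439 (IL-15) and 387 CPM (IL-2) at 500 nM for 24 h, against 720.2 and 722 CPM at 1 nM for 24 h. At 4 h it had 553 and 495 CPM at 500 nM, against 632 and 613 CPM at 1 nM. The groups of dose did not overlap. The fold change at 24 h was -0.81 ± 0.17 (adjusted p = 0.0034, edgeR), while over both times it was -0.53 ± 0.17 (adjusted p = 0.062). Across the 9 libraries, log2 levels of Cd247 and Cd3d had a Pearson r of 0.99, given as a description of libraries that share cells, dose and time.

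Cd3e overlapped between the doses at 4 h and was lower at 500 nM at 24 h. It had 49.9 (IL-15) and 46.6 CPM (IL-2) at 500 nM for 24 h, against 85.0 and 89.6 CPM at 1 nM for 24 h. At 4 h it had 56.2 and 45.6 CPM at 500 nM, against 52.3 and 46.8 CPM at 1 nM, and these ranges overlapped. The fold change was -0.86 ± 0.19 (adjusted p = 0.0051, edgeR) at 24 h and 0.04 ± 0.19 (adjusted p = 0.95) at 4 h, and the difference between these missed the threshold at -0.90 ± 0.27 (adjusted p = 0.063).

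Cd3g, whose gene neighbours Cd3d, was lower at 500 nM at both times. At 4 h it had 178 (IL-15) and 212 CPM (IL-2) at 500 nM, against 381 and 316 CPM at 1 nM. At 24 h it had 268 and 236 CPM at 500 nM, against 405 and 361 CPM at 1 nM. No library at 500 nM reached the lowest at 1 nM. The fold change was -0.83 ± 0.19 (adjusted p = 0.014, edgeR) at 4 h and -0.60 ± 0.19 (adjusted p = 0.027) at 24 h. Over both times it was -0.72 ± 0.16 (adjusted p = 0.018), a call lost without IL-15 at 1 nM for 24 h or either library at 500 nM for 24 h. Its interaction with time was 0.23 ± 0.26 (adjusted p = 0.68), so that a difference between the times of -0.35 to 0.80 lay within the 95% interval. At 24 h the call was lost without any one of the 4 libraries at that time. At 4 h it was lost without IL-15 at 1 nM or IL-15 at 500 nM. With scaling to T lineage genes, the calls of Cd3e, Cd3g and Cd247 at 24 h were lost (adjusted p = 0.12, 0.49 and 0.18), while that of Cd3d remained. The call of Cd3g at 4 h was lost with it too (-0.68, adjusted p = 0.17). The calls of Cd3e and Cd247 at 24 h were also lost without either library at 500 nM.

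Lat and Cd5 moved up with time. Across both doses and cytokines, 2 of the 10 genes changed between 24 h and 4 h, and both were higher at 24 h. Of all genes tested, 5.3% changed, 2.69% higher and 2.62% lower. Neither call held without IL-2 at 1 nM for 4 h, IL-2 at 500 nM for 4 h, IL-2 at 500 nM for 24 h or IL-15 at 500 nM for 24 h, where the count was 0. With scaling to T lineage genes the call of Lat was lost (0.80, adjusted p = 0.058), and once the model also held an interaction of dose and time, 4 of the 10 passed. At 500 nM, 3 of the 10 changed with time, against 26.3% of all genes, 13.3% higher and 12.9% lower: Lat and Cd5 were higher at 24 h, and Cd3d was lower (-0.54 ± 0.18, adjusted p = 0.040, edgeR), a call lost without any one of the 4 libraries at 500 nM. At 1 nM 4 of the 10 did, against 2.86% of all genes, 1.49% higher and 1.37% lower. The 4 at 1 nM were Cd8b1 (0.81 ± 0.18), Cd3e (0.82 ± 0.19), Lck (0.77 ± 0.17) and Lat (0.87 ± 0.20), all higher at 24 h with adjusted p of 0.034 to 0.044 (edgeR). None of these 4 calls held without any one of the 4 libraries at 1 nM or of the libraries at 500 nM for 24 h, nor with scaling to T lineage genes. That scaling moved the median of all genes between 24 h and 4 h by -0.26 over both doses, and the split of all calls was 174 higher and 1161 lower in place of 362 and 353. Myeloid markers summed to 1584 and 1613 CPM at 1 nM for 24 h, against 856 and 962 CPM at 1 nM for 4 h, with 5 of 12 called higher. At 500 nM they summed to 410.1 and 438 CPM at 24 h, against 1180.1 and 1315 CPM at 4 h, with 8 of 12 called lower, as were 5 of 12 B cell markers. Most of these sums at 500 nM was Ctss, with 372 and 408 CPM at 24 h, against 995 and 1178 CPM at 4 h. The part of the myeloid and B cell markers in these changes was not tested.

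Lat, the adaptor on which the signalling complex assembles, had 939 (IL-15) and 1022 CPM (IL-2) at 500 nM for 24 h, against 323 and 488 CPM at 500 nM for 4 h. At 1 nM it had 1056 and 945 CPM at 24 h, against 565 and 533 CPM at 4 h. No library at 4 h reached any at 24 h. The log2 fold change of 24 h over 4 h was 1.08 ± 0.18 (adjusted p = 0.017, edgeR) over both doses and 1.28 ± 0.21 (adjusted p = 0.00082) at 500 nM. At 500 nM the call held without each library in turn.

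Lck, the kinase that starts the cascade, had 859 (IL-15) and 789 CPM (IL-2) at 500 nM for 24 h, against 679.7 and 579 CPM at 500 nM for 4 h. At 1 nM it had 874 and 846 CPM at 24 h, against 506 and 506 CPM at 4 h. The groups of time did not overlap, and over both doses the fold change of 0.58 ± 0.15 missed the threshold (adjusted p = 0.063, edgeR). Zap70, the kinase that docks on the motifs, also had every library at 24 h above every library at 4 h, by a narrow margin. It had 402 (IL-15) and 359.7 CPM (IL-2) at 1 nM for 24 h and 457 and 488 CPM at 500 nM for 24 h. At 4 h it had 336 and 311 CPM at 1 nM and 342 and 358 CPM at 500 nM. Its fold change over both doses was 0.33 ± 0.15 (adjusted p = 0.20).

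Cd5 had the widest range of the 10, with a highest level 10.04-fold above its lowest, while the other 9 ranged between 1.73-fold (Lck) and 4.14-fold (Lat). It had 14.8 (IL-15) and 20.8 CPM (IL-2) at 500 nM for 4 h, against 75.6 and 66.8 CPM at 1 nM for 4 h. At 24 h it had 68.5 and 58.8 CPM at 500 nM, against 134 and 120.2 CPM at 1 nM. The groups of dose did not overlap within either time, although the level at 500 nM for 24 h overlapped that at 1 nM for 4 h. The fold change of 500 nM over 1 nM was -2.00 ± 0.22 (adjusted p = 0.00019, edgeR) at 4 h and -0.997 ± 0.21 (adjusted p = 0.0036) at 24 h. The difference between these was 1.00 ± 0.30 and missed the threshold (adjusted p = 0.060). Over both times it was -1.49 ± 0.24 (adjusted p = 0.0054), a call that held without each library in turn. With time, Cd5 was higher at 24 h by 1.33 ± 0.24 (adjusted p = 0.021) over both doses and by 1.84 ± 0.22 (adjusted p = 0.00013) at 500 nM. Its call for dose at 24 h was lost without the IL-2 library at 500 nM (adjusted p = 0.078) and with scaling to T lineage genes (adjusted p = 0.081).

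No difference between IL-15 and IL-2 was detected for these genes. None of the 10 passed the test, against 0% of all genes by edgeR, with 125 genes at an unadjusted p below 0.05 and none of the 10 among them. DESeq2 called 2 of all genes and limma-voom 0. The fold changes of IL-15 over IL-2 ran between -0.11 (Lat) and 0.14 (Cd3d), and the 95% intervals reached down to -0.52 (Lat) and up to 0.65 (Cd3d). The cytokine groups overlapped for all 10 genes. In single pairs at the same dose and time, the widest gaps were at 500 nM for 4 h, where Lat was 323 CPM with IL-15 and 488 CPM with IL-2, a difference of -0.60 in log2. In the same pair Cd5 was 14.8 CPM with IL-15 and 20.8 CPM with IL-2, a difference of -0.49, and Cd8b1 was 1342 CPM with IL-15 and 1011 CPM with IL-2, a difference of 0.41. In the pairs at 24 h, differences ran between -0.09 and 0.16 at 1 nM and between -0.12 and 0.22 at 500 nM. Such pairs are 1 library each and have no test. The interactions of cytokine with dose and with time called none of the 10 and 0% of all genes with edgeR, DESeq2 and limma-voom, with 151 and 189 genes at an unadjusted p below 0.05 and none of the 10 among them. Without any true difference, a share of 0.05 of the 13479 genes would lie there, and the counts for all these cytokine tests were smaller. Dose by time was left out of these fits and so enters their spread. A fit that added this interaction likewise called 0 of the 10 between IL-15 and IL-2. Why the counts of small p-values were low was not tested, and they do not show equal levels.

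Against the untreated library, none of the 10 genes was called higher in any treated condition by edgeR, and 6 were called lower in at least 1. All 4 comparisons share that 1 library, and each averages both cytokines. At 1 nM for 4 h, 4 of the 10 fell (6.31% of all genes changed, 2.75% higher and 3.55% lower): Cd8a by 1.13 ± 0.20, Lat by 1.28 ± 0.24, Zap70 by 1.10 ± 0.20 and Cd5 by 1.07 ± 0.25 in log2, with adjusted p of 0.0069 to 0.028 (edgeR). Without the IL-2 library at 1 nM for 4 h the count was 1, without the IL-15 library Cd5 was lost, and with scaling to T lineage genes it was 1. Among the 10 scaling genes, 0 were themselves called higher and 2 lower, with a median change of -0.59. At 1 nM for 24 h none of the 10 passed with edgeR, while 1.65% of all genes did, 0.861% higher and 0.786% lower; 4 of the 10 and 2169 of all genes had an unadjusted p below 0.05, and of the 10 DESeq2 called 2 and limma-voom 1.

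At 500 nM for 4 h, 4 of the 10 fell (16.4% of all genes changed, 7.92% higher and 8.47% lower). These calls held without each treated library in turn, while the 1 untreated library, on which they all rest, cannot be left out. Cd5 had 14.8 and 20.8 CPM, against 149 CPM untreated, a log2 fold change of -3.06 ± 0.25 (adjusted p = 3.2e-05, edgeR). Lat had 323 and 488 CPM, against 1337 CPM untreated (-1.73 ± 0.24, adjusted p = 0.00051). Cd3g had 178 and 212 CPM, against 500.2 CPM untreated (-1.36 ± 0.22, adjusted p = 0.0014). Zap70 had 342 and 358 CPM, against 692 CPM untreated (-0.98 ± 0.21, adjusted p = 0.0065). With scaling to T lineage genes the call of Zap70 was lost (adjusted p = 0.097). Among the 10 scaling genes, 1 was itself called higher and 3 lower in this comparison, with a median change of -0.48. Against untreated, 8 of 12 myeloid, 5 of 12 B cell and 4 of 7 dendritic cell markers were also called lower at 500 nM for 4 h, and 7 of 12 myeloid markers at 1 nM for 4 h. Their part in these changes was not tested.

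At 500 nM for 24 h, 3 of the 10 fell (25.2% of all genes changed, 12.8% higher and 12.3% lower): Cd5 by 1.23 ± 0.25, Cd3g by 0.99 ± 0.22 and Cd3d by 0.72 ± 0.21 in log2 (adjusted p = 0.0038, 0.0064 and 0.025, edgeR). The count was 0 without IL-2 at 500 nM for 24 h and 1 without IL-15 at 500 nM for 24 h, and DESeq2 called 6. The call of Cd3d was lost with scaling to T lineage genes (-0.71, adjusted p = 0.098), of which 1 was itself called higher and 2 lower. Cd8a at 985 and 897 CPM and Lck at 859 and 789 CPM stood beside 903 and 835 CPM untreated, with differences of 0.06 ± 0.21 (95% interval -0.39 to 0.51) and -0.02 ± 0.21 (-0.47 to 0.43). The remaining untreated levels were 1615 CPM for Cd8b1, 171 for Cd3d, 59.9 for Cd3e and 591 CPM for Cd247. Myeloid markers summed to 410.1 and 438 CPM at 500 nM for 24 h, against 2097 CPM untreated, and B cell markers to 257 and 309.6 CPM at 500 nM for 24 h, against 786 CPM untreated. Their part in these changes was not tested.

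**Figure D4:**
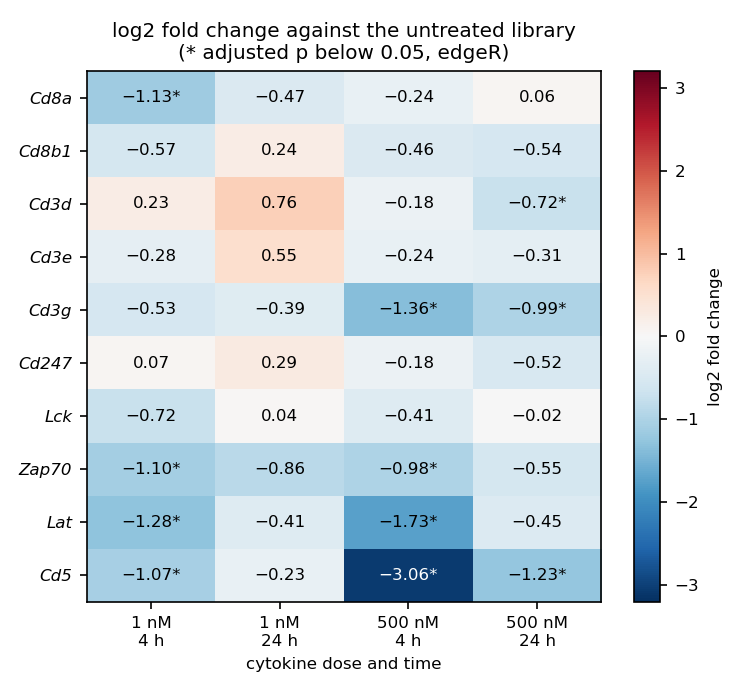
Log2 fold change of both cytokines averaged against the 1 untreated library, as a colour and a printed value, for each of the 10 genes (rows) at each dose and time (columns), with an asterisk for an adjusted p below 0.05. Cd5 was lowest at 500 nM for 4 h, at -3.06, and Cd8a at 500 nM for 24 h lay at 0.06.

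Beyond the 10 genes, 3 lists of pathway genes were read in the same tests. They held kinases, adaptors and transcription factors of TCR signalling (27 of 28 tested), brakes of TCR signalling (22 of 23) and surface partners of the TCR (12 of 12). For dose over both times, 1 of the kinases and adaptors rose and 1 fell, 2 brakes rose and 5 fell, and 3 surface partners rose and 3 fell at 500 nM, where 7.63% of all genes rose and 8.47% fell. Their median changes were 0.02, -0.22 and -0.03, beside -0.03 for all genes. Fyn, a kinase related to Lck, rose by 0.60 ± 0.15, and Nfatc3, a calcium-regulated transcription factor, was at -0.95 ± 0.15. Among the brakes, the phosphatase Ptpn22 fell by 0.93 ± 0.14, the diacylglycerol kinase Dgkz by 1.02 ± 0.17 and Ubash3b, which acts on tyrosine kinases, by 1.39 ± 0.26. Among the surface partners, the SLAM receptor gene Slamf1 rose by 1.71 ± 0.21, while its adaptor Sh2d1a fell by 1.52 ± 0.24 and the costimulatory receptor gene Cd28 by 1.16 ± 0.21. Adjusted p of these 8 genes lay between 0.0018 and 0.031 (edgeR).

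At 4 h, 3 kinases and adaptors rose and 2 fell at 500 nM, 1 brake rose and 5 fell, and 3 surface partners rose and 3 fell, against 5.42% of all genes higher and 4.63% lower. The brake that rose was Socs3, an inhibitor of cytokine signalling, with 497 (IL-15) and 578 CPM (IL-2) at 500 nM, against 257 and 169 CPM at 1 nM. Ubash3b had 10.01 and 8.60 CPM at 500 nM, against 32.5 and 40.1 CPM at 1 nM, and Ubash3a, its T cell relative, 37.5 and 60.7, against 124 and 127 CPM. Both lay lower in all libraries at 500 nM than at 1 nM for 4 h, as Cd5 did. At 24 h, 2 kinases and adaptors rose and 6 fell, 4 brakes rose and 6 fell, and 3 surface partners rose and 3 fell, against 15.6% of all genes in each direction. The diacylglycerol kinase Dgka had 342 and 312 CPM at 500 nM, against 1069.9 and 815 CPM at 1 nM, and Cd27, a costimulatory receptor, 159 and 151, against 390.5 and 349 CPM. The adaptor Fyb, with 57.7 and 48.4 CPM at 500 nM, against 117.2 and 123 CPM at 1 nM, was also lower. Nfatc2 was higher, with 125 and 103 CPM at 500 nM, against 50.8 and 57.6 CPM at 1 nM.

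Of the 22 brakes, 5 rose and 0 fell at 24 h against 4 h over both doses, among them the adaptor Sit1 (1.83 ± 0.24) and the phosphatases Ptpn6 (1.18 ± 0.16) and Ptpn7 (1.27 ± 0.19), with adjusted p of 0.0077 to 0.011 (edgeR). Of all genes, 2.69% rose and 2.62% fell. At 500 nM 8 brakes rose and 4 fell with time (13.3% of all genes rose and 12.9% fell), and at 1 nM 3 rose and 0 fell (1.49% and 1.37%). Of the kinases and adaptors 2 rose and 2 fell over both doses, and 2 surface partners rose and 1 fell. With time at 500 nM, 4 kinases and adaptors rose and 8 fell, and 3 surface partners rose and 2 fell. With time at 1 nM, 1 of the kinases and adaptors rose and 1 fell, and 1 surface partner rose and 0 fell. Against untreated cells at 500 nM, 1 brake rose and 9 fell at 4 h (7.92% of all genes rose and 8.47% fell), and 0 rose and 7 fell at 24 h (12.8% and 12.3%). Of the kinases and adaptors, 3 rose and 3 fell at 4 h, and 2 rose and 6 fell at 24 h. Of the surface partners, 1 rose and 3 fell at 4 h, and 2 rose and 1 fell at 24 h. At 1 nM for 4 h against untreated, 1 brake rose and 5 fell, and 2 kinases and adaptors rose and 3 fell. There 0 surface partners rose and 2 fell (2.75% and 3.55% of all genes). At 1 nM for 24 h no gene of the 3 lists was called. Between IL-15 and IL-2 no gene of the 3 lists was called. Calls in the 3 lists were not followed through the alternative settings or with libraries left out. The part of other cell types in them was not tested.

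**Figure D5:**
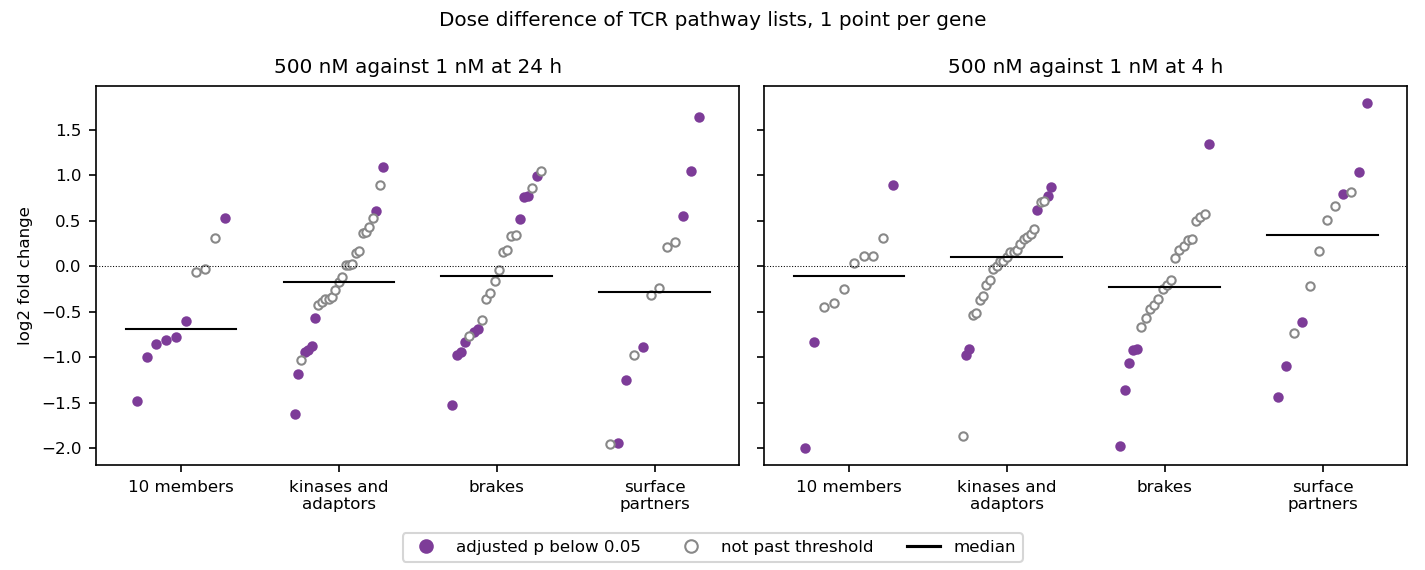
Log2 fold change of 500 nM over 1 nM at 24 h (left) and at 4 h (right), 1 point per gene, for the 10 genes and the 3 pathway lists, with called genes filled and the median as a bar. Called genes lie on both sides of 0 in every list at both times, with medians of the lists at 24 h of -0.17 for kinases and adaptors, -0.11 for brakes and -0.28 for surface partners.

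Genes with the most similar profile were sought among 3703 genes with a mean of at least 50 CPM, by Pearson r of log2 levels over the 9 libraries. For Cd8a they included Centb1 (r = 0.997) and Nkg7 (0.969), a gene of cytotoxic granules. For Cd8b1 they were Pdk1, a kinase of pyruvate dehydrogenase (0.950), Cd3e (0.948) and Acaa2 (0.940). For Cd5 they were Idh2, a mitochondrial isocitrate dehydrogenase (0.989), Ttc7 (0.977) and C630004H02Rik (0.9747). Idh2 had 39.4 (IL-15) and 55.2 CPM (IL-2) at 500 nM for 4 h, its lowest libraries, as Cd5 had there. Within the complex, the closest pairs after Cd247 and Cd3d were Cd3e and Cd8b1 (0.95), Cd5 and Cd3g (0.92) and Cd5 and Lat (0.85). Cd8a and Cd8b1, whose products pair, had r = 0.14. All these values describe 9 libraries that share dose and time, and carry no test.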

How the data were processed

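RNA sequencing was read in 9 libraries, 1 per condition, each from RNA of 3 samples pooled. Per the labels' protocols, 2.5 ng of RNA went into cDNA amplified in 2 rounds (12 cycles, 9 cycles), and the fragments, 220 to 400 bp long, had 17 further cycles. The submitters' processing notes name CASAVA 1.8, Bowtie 0.12.4 and mm8. For the counter, strand use and multi-mapping, the processing is not given in the sources used here, so reads of an antisense neighbour cannot be told apart.

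The deposited files give read counts per transcript, which were tested, and RPKM values made by the authors from those counts and exon length, per the file headers and the values, which were used to compare genes.

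Genes were kept by filterByExpr (minimum count 10, total 15), leaving 13479, and libraries were scaled by the trimmed mean of M values. edgeR 4.0.16 in R 4.3.3 fitted main effects of dose, time, cytokine and the untreated state, leaving 4 residual degrees of freedom, so that interactions left out enter the spread. A dose by time term (3 residual degrees of freedom) gave dose at each time, time at each dose and each dose and time against untreated. Cytokine by dose and cytokine by time were each fitted with 3 residual degrees of freedom. The pipeline was tested on simulated data.

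The 10 genes, the 3 pathway lists, the markers of B, myeloid, NK, dendritic, CD4+ and regulatory T and erythroid cells and the 10 T lineage genes for scaling, some of which the pathway lists also hold, were chosen with earlier results of these data known. Pathway genes named are, per list and comparison, up to 3 called genes with the smallest adjusted p, with examples given here. Some genes that these rules name are not reported here. Similar profiles used log2 of CPM with an offset of 0.5. Motifs were matched in RefSeq promoters of GRCm38.p6, by symbol. Alternatives were median of ratios scaling, scaling to T lineage genes, DESeq2 1.42.0, limma-voom (limma 3.58.1), a filter at a mean of 50 counts, no filter at all, averaging over transcripts, the dose by time term and leaving out each library. Leaving out both libraries at 1 nM for 24 h was added after seeing the data.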

Additional observations from a re-analysis of the deposited data

Results flagged for a closer look

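The effect of dose on Cd3d, a CD3 chain, differed between the times: the interaction of dose and time was -1.07 ± 0.25 in log2 (SE, adjusted p = 0.023, edgeR's quasi-likelihood test over all 13479 genes). At 24 h the fold change of 500 nM over 1 nM was -1.48 ± 0.18, and at 4 h it was -0.41 ± 0.18. The call was lost with scaling to T lineage genes (-0.90, adjusted p = 0.15) and without IL-2 at 1 nM for 24 h, IL-15 at 1 nM for 4 h, IL-15 at 500 nM for 4 h or either library at 500 nM for 24 h, with adjusted p up to 0.16. Cd3d was lower at 500 nM with both cytokines at both times. Myeloid markers also differed more between doses at 24 h, where 9 of 12 passed the same interaction test, and their part in the result was not tested.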

How the results depend on the processing

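Among the 140 tests of the 10 genes, 35 were called, and none of these changed sign under any alternative run. Of 2260 values under the alternatives, 95 changed sign, all of them of uncalled results. Scaled to T lineage genes, the number of the 10 genes called was 2 for dose, 1 for time, 2 for dose at 24 h, 0 for time at 1 nM, 0 for dose by time and 1 for 1 nM at 4 h against untreated. Over both times it ended the dose calls of Cd3d (-0.70, adjusted p = 0.060) and Cd3g (-0.47, adjusted p = 0.15). The split of all calls for dose was then 1633 higher and 644 lower, in place of 1028 and 1142, and the median of all genes moved by 0.21. Of the 10 scaling genes, 1 was itself called higher and 1 lower for dose, and 2 higher and 1 lower for time. DESeq2 called 4 for time, 6 for time at 1 nM, 5 for time at 500 nM, 4 for dose by time, 2 for 1 nM at 24 h against untreated and 6 for 500 nM at 24 h against untreated. limma-voom called 2 for dose by time and 1 for 1 nM at 24 h against untreated. With no filter the counts were 3 and 1 for the same comparisons, and with a mean of at least 50 counts 3 for dose by time. With the dose by time term, 6 were called for dose and 4 for time.

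Leaving out each library gave counts of 1 to 5 for dose, 0 to 2 for time, 2 to 3 for dose at 4 h, 1 to 7 for dose at 24 h, 0 to 5 for time at 1 nM, 2 to 3 for time at 500 nM and 0 to 3 for dose by time. Against untreated, they were 1 to 5 at 1 nM for 4 h, 0 at 1 nM for 24 h, 4 at 500 nM for 4 h and 0 to 3 at 500 nM for 24 h. For IL-15 against IL-2 and both cytokine interactions they were 0 throughout. In the comparisons against untreated, only treated libraries were left out, since the 1 untreated library cannot be. A lone library of a condition is then assumed to vary like the others. Leaving out a library or changing the scaling also changes the spread, and the cause of lost calls was not tested. Pairing by replicate was not possible because each condition has 1 library and the labels carry no replicate numbers. The edgeR fits held terms for cytokine, dose and time, whereas the permutation tests of the ratio did not match libraries on these. With 3 or 4 residual degrees of freedom and 1 untreated library, a call missed here does not show an equal level.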
